A study of Mus musculus with 12 samples.

Results

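The TRIM and RNF ubiquitin ligase genes were followed through the m6A peak lists of 3 dendritic cell (DC) types of the mouse, and were taken as every listed transcript whose symbol starts with Trim or Rnf followed by a digit. This rule gave 89 of the 9142 transcripts with a peak in any list (36 TRIM and 53 RNF genes) and 422 of 40978 peaks. The 3 types were immature DC (imDC), mature DC (maDC) and regulatory DC (DCreg), all grown from bone marrow of C57BL/6 mice aged 6 weeks with GM-CSF at 10 ng/ml and IL-4 at 1 ng/ml and selected on CD11c, a surface integrin of DC, with magnetic beads. maDC were imDC given lipopolysaccharide (LPS, a bacterial ligand of TLR4) at 100 ng/ml for 24 h. DCreg were such LPS-treated cells kept for a further 7 days on a layer of spleen endothelial cells, so they differ from maDC in time and in co-culture at once. Marrow of several mice was pooled for each type. Each type had 2 replicates, and each replicate an immunoprecipitated (IP) library made with an antibody against m6A and an input library, 12 libraries in all. The study calls them biological replicates, and the labels do not say how the cultures were separated. Each SE given below comes from a model fitted over all peaks listed in both types compared. It therefore draws on the spread of all those peaks, and not on the 2 samples per type at that peak alone.

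Ubiquitin ligases of the RING type bring a ubiquitin-loaded E2 enzyme next to a substrate, and the RING finger is the zinc-binding fold that holds the E2. TRIM proteins join a RING finger to B-boxes and a coiled coil, and many of them act in the sensing of viral RNA and DNA, while RNF is a collective name for genes with a RING finger and little else in common. m6A is a methyl group on adenosine of mRNA, written by the Mettl3-Mettl14 complex at short motifs of which GGACT is the most favoured form. In DC, ligases of this kind modify the adaptors and kinases below Toll-like receptors and RIG-I.

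Values are log2 enrichment, the IP over input ratio of a peak relative to the median window of the same transcript, given as replicate 1 and replicate 2. A peak was listed only if it reached at least 1 in both. The study also required its windows to pass a cutoff of the false discovery rate for IP against input. Positions are nucleotides from the start of the listed isoform. Read depth is unknown, and a gene without a listed peak may lack the mark or be too weakly expressed for a peak to be called. These cannot be told apart from the lists, nor can fewer cells of a type and less RNA per cell. The sources differ on the library kit. The methods name NEBNext alone, while a TruSeq kit is labelled for replicate 1 of both imDC and maDC. If the labels hold, imDC and maDC have 1 replicate of each kit, and both DCreg replicates are NEBNext. Differences of kit and of DC type then cannot be fully told apart in comparisons with DCreg. The lists held peaks in 16, 19 and 11 of 20 DC markers in imDC, maDC and DCreg. In the same order they held peaks in 2, 4 and 8 of 28 endothelial and stromal markers. For macrophage markers the numbers were 4, 7 and 9 of 16, and for neutrophil markers 5, 5 and 3 of 11. Of 14 lymphocyte markers 0 had a peak in each list. Itgax, which encodes CD11c, had peaks in all 3 lists, and the endothelial and stromal markers differed among themselves. Pecam1 and Cdh5 had no peak in any list, Kdr had 0, 3 and 1 peaks in imDC, maDC and DCreg, Eng 2, 1 and 0, and Vwf 0, 1 and 3, and the collagen genes Col3a1 and Col4a1 had peaks in DCreg alone. The part of these other cells in the results below was not tested.

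The sequences under the peaks are shown first, because the strongest sites differ in kind. Each stretch is 30 bases of the transcript, 5′ to 3′, from RefSeq on GRCm38 (mm10) with T for U, and capitals mark GGACT, which was searched on the transcript strand. Rnf11, Trim25, Trim41, Rnf146 and Rnf25 carry the motif under a peak in all 3 lists, and Trim43b under its single peak, in maDC alone. Trim30a and Trim30d are neighbouring paralogs. The last stretch shows the purine tract under the DCreg peak of Trim12c.
Rnf11: gatctgtatgatGGACTttgtttatgggga
Trim25: caagttcaaggtGGACTtcaccgaagctct
Trim41: ctgggacaacatGGACTatgtgtgggagga
Rnf146: gtagctGGACTtaggctGGACTgtgacacc
Rnf25: gctcgcaGGACTcgGGACTgtgctcgctgg
Trim43b: tttgaaGGACTataggcggtGGACTgtagg
Trim30a: aaaGGACTaagagacctcctGGACTccaag
Trim30d: aatGGACTaagagacctcctagactccaag
Trim12c: ggaagggaagggaagaaagaaagaaagaaa

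These stretches lie at chr4:109454387-109454416 (Rnf11, minus strand, exon 3 of 3), chr11:89016634-89016663 (Trim25, plus strand, exon 9 of 9), chr11:48816279-48816308 (Trim41, minus strand, exon 1 of 6), chr10:29347325-29347354 (Rnf146, minus strand, exon 4 of 4), chr1:74593944-74593973 (Rnf25, minus strand, exon 10 of 10) and chr9:89085524-89085553 (Trim43b, minus strand, exon 7 of 7). All of these are coding. Those of the paralogs lie at chr7:104429280-104429309 (Trim30a) and chr7:104483491-104483520 (Trim30d), both on the minus strand in exon 4 of 8 and coding. The purine tract is in a 3′ UTR, at chr7:104339892-104339921 (Trim12c, minus strand, exon 8 of 8). Counted from 1 at the 5′ end of the stretch, Trim30a and Trim30d differ at A3T and G21A, and the second of these leaves Trim30d with 1 GGACT where Trim30a has 2. Over 3673 aligned bases the 2 transcripts are 88.5% identical, and Trim12c and Trim12a are 96.2% identical over 1006, so reads of these paralogs could be split between them and their values are uncertain.

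Among the 89 ligase transcripts with a peak in any list, more than 50% had one in every DC type, as did 50.2% of all listed transcripts. The fewest were found in imDC. The imDC list held 65 of the 89 genes, the maDC list 80 and the DCreg list 67, against 66.1%, 88.1% and 72.8% of all listed transcripts. For TRIM genes the numbers were 26, 33 and 25 of 36, and for RNF genes 39, 47 and 42 of 53. The peaks numbered 112, 181 and 129, or 1.72, 2.26 and 1.93 per gene with a peak, against 1.74, 2.15 and 1.97 over all genes. Some listed peaks abut and are not separate regions. With abutting peaks joined, the members had 100, 151 and 116, against 9597, 15307 and 11770 over all genes. In all 3 lists together stood 51 of the 89 (57.3%, against 50.2% of all transcripts). The annotation holds 154 genes that match the rule, of which 65 had no peak under such a symbol, among them Rnf31, the catalytic subunit of the linear ubiquitin complex, and Rnf213. Rnf10 and Rnf103 had peaks listed without a symbol and thus fell outside the rule.

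**Figure D1:**
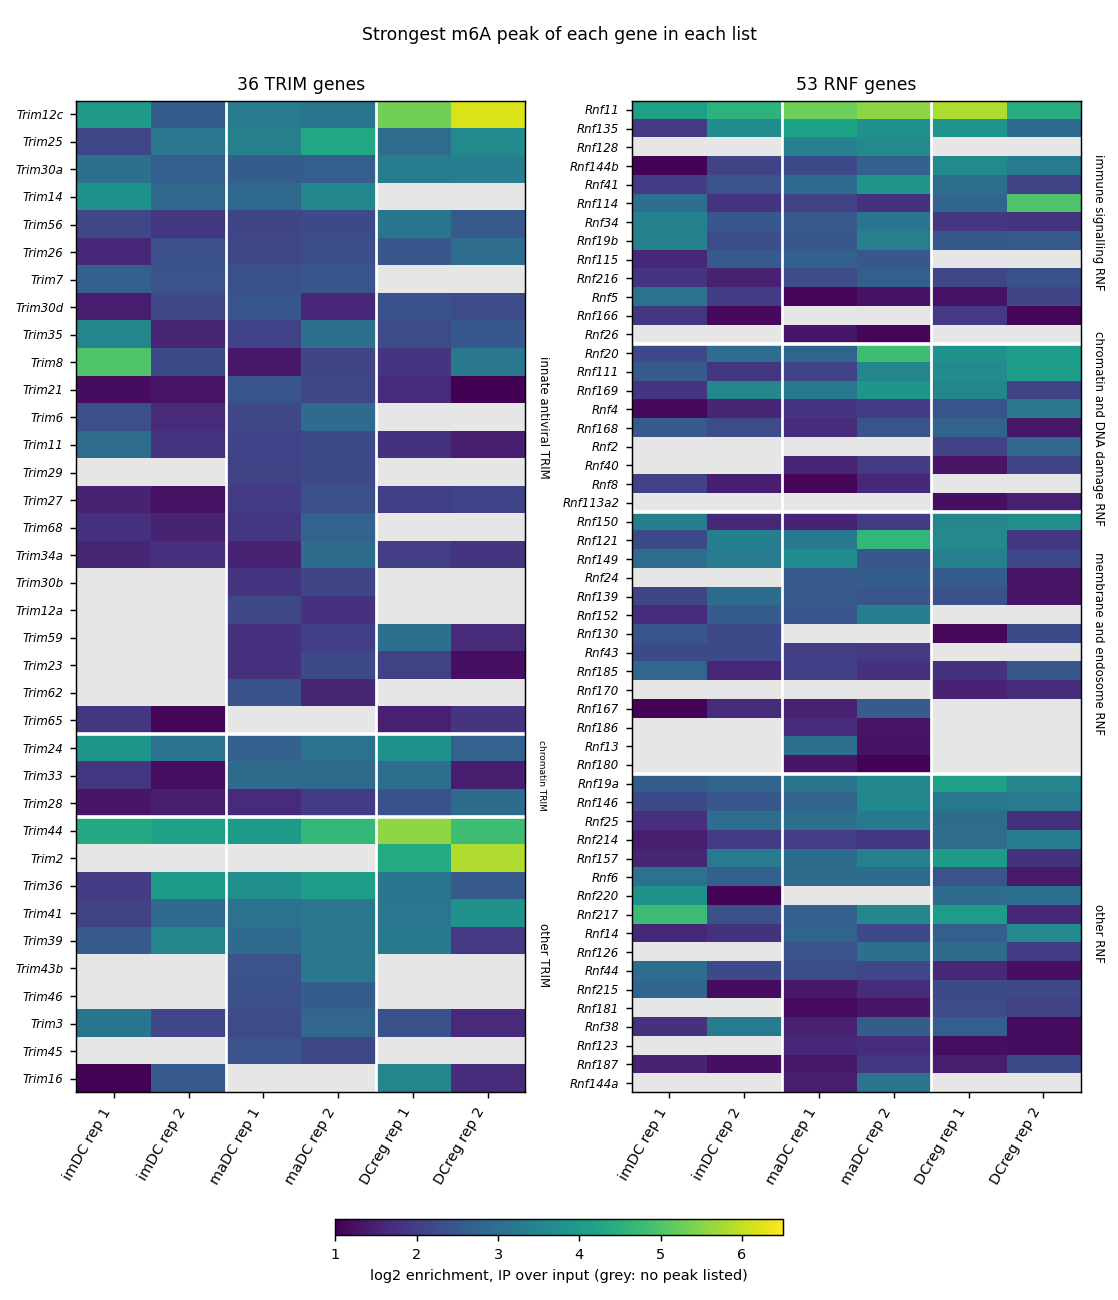
Strongest peak (by the lower replicate) of each of the 36 TRIM and 53 RNF genes (rows, by role, and by falling enrichment within a role) in each list, as log2 enrichment in replicates 1 and 2 (columns), with grey for no listed peak. 51 genes are coloured in all 3 types, and the grey cells are fewest in maDC, where 80 genes have a peak.

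The innate and antiviral TRIM genes were the largest group, with 17 of 23 members listed in imDC, 22 in maDC and 15 in DCreg. Trim25, which ubiquitinates the RNA sensor RIG-I, had more listed peaks than any other TRIM gene in imDC (7) and DCreg (6). In maDC it had as many as Trim12c and Trim24 (6). Some of the peaks counted here abut and are not separate regions. The main site of Trim25 lay at the stop codon, over the GGACT shown above. There the values were 2.17 and 3.15 in imDC (1830 to 2045), 3.39 and 4.28 in maDC (1837 to 2036) and 3.41 and 2.32 in DCreg (1825 to 1999), followed there by an abutting peak of 2.96 and 3.61 (2000 to 2100). Both maDC values were above both imDC values, while the DCreg pair overlapped with each of the others. Further peaks stood in the coding sequence around nucleotides 791 to 1112 in all 3 lists and near the far end of the 3′ UTR around 4994 to 5215.

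Trim30a lowers signalling of the TAK1 complex after TLR engagement in the mouse. Over its pair of GGACT motifs it gave 3.03 and 2.64 in imDC (755 to 974), 2.63 and 2.65 in maDC (746 to 974) and 3.08 and 3.17 in DCreg (745 to 864), where an abutting peak followed with 3.34 and 3.36 (865 to 1027). Its paralog Trim30d, with a single GGACT at this place, gave 1.45 and 2.18 in imDC, 2.47 and 1.63 in maDC and 2.39 and 2.28 in DCreg. In each list both Trim30a values over the motifs were above both Trim30d values. Trim30b and Trim12a, other mouse relatives, had 1 peak each, in maDC alone, of 1.85 and 2.16 and of 2.20 and 1.79.

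Trim14, an adaptor without a RING finger at the mitochondrial MAVS complex, was listed in imDC and maDC and not in DCreg. Its main coding peak gave 3.83 and 2.84 in imDC and 2.88 and 3.55 in maDC, which overlap. Trim6, Trim7 and Trim68 had the same pattern, with no value above 2.92. Trim56, a ligase of the STING and TLR3 pathways, had 3 coding peaks in imDC and in maDC and 1 in DCreg, where it gave 3.13 and 2.54 against 2.17 and 1.90 in imDC at the same place. Trim26, which acts on IRF3, had a coding peak in every list, of 1.60 and 2.35 in imDC, 2.50 and 1.91 in maDC and 2.50 and 2.97 in DCreg, so both DCreg values were above both imDC values and the maDC pair overlapped with each. Trim65, which ubiquitinates the RNA sensor MDA5, had a coding peak in imDC (1.87 and 1.11), a 3′ UTR peak in DCreg (1.48 and 1.83) and none in maDC. Trim21, the receptor for antibody-coated particles in the cytosol, gave 1.96 and 2.02 at its stop codon in maDC and 1.68 and 1.02 in DCreg, close to the threshold of the lists.

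Trim24, Trim28 and Trim33, corepressors that bind chromatin, had peaks in all 3 lists. Trim24 had 3, 6 and 2 peaks in imDC, maDC and DCreg. Its peak over the start codon gave 3.89 and 3.09 in imDC and 3.33 and 2.49 in maDC, and was not listed in DCreg, where both peaks lay in the last coding stretch (3.79 and 2.73) and the 3′ UTR (3.63 and 2.57). Trim28, the corepressor KAP1 of KRAB zinc finger proteins, had a weak coding peak at the same place in each type, 1.34 and 1.44 in imDC, 1.65 and 1.98 in maDC and 2.38 and 2.95 in DCreg. The 3 types did not overlap at this peak, in the order imDC, maDC, DCreg. None of the differences between types was called there in the comparison of shared peaks below (limma adjusted p from 0.789 to 0.982). Trim33, a ligase of SMAD4, had 4 peaks in maDC and 1 in each other type, and the stop codon peak of maDC (2.91 and 2.91) was not listed elsewhere.

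Among the other TRIM genes, Trim44 stood out by level. It has no RING finger but a zinc finger of the kind found in ubiquitin-specific proteases. Its coding peak gave 4.32 and 4.16 in imDC (437 to 642), 4.00 and 4.65 in maDC (449 to 652) and 5.58 and 4.80 in DCreg (407 to 583), so both DCreg values were the highest. A GGACT lay within the DCreg interval and outside the other 2. Trim41 gave 2.09 and 2.92 in imDC, 3.05 and 3.18 in maDC and 2.74 and 3.35 in DCreg over the motif shown. Over its start codon Trim41 had a further peak in DCreg alone, of 3.15 and 3.84. Trim39, a ligase of the apoptosis regulator MOAP1, gave 2.58 and 3.53, 2.92 and 3.19, and 3.22 and 1.91 in imDC, maDC and DCreg at a coding peak with GGACT in each, and its pairs overlap. Trim36, a microtubule-associated ligase, gave 1.98 and 3.99 in imDC, 3.73 and 4.07 in maDC and 3.14 and 2.56 in DCreg at its stop codon. The imDC replicates of Trim36 were far apart and spanned nearly all the other values.

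Of the 13 RNF genes of immune signalling, 11 were listed in imDC, 12 in maDC and 10 in DCreg. Rnf11, a subunit of the A20 ubiquitin-editing complex, had the strongest peak of all RNF genes by the lower replicate, in its coding sequence over the motif shown. It reached 4.12 and 4.55 in imDC (469 to 645), 5.29 and 5.55 in maDC (476 to 677) and 5.82 and 4.42 in DCreg (466 to 627). The maDC values were above both imDC values, and the DCreg pair enclosed the maDC pair and overlapped with imDC. Rnf135 (Riplet), the activating ligase of RIG-I, gave 1.91 and 3.67 in imDC, 4.19 and 3.78 in maDC and 3.86 and 2.93 in DCreg at a coding peak with 2 GGACT motifs. Here too both maDC values were above both imDC values, though narrowly, since imDC replicate 2 was near the lower maDC value. Rnf128 (GRAIL), known from T cell anergy, had 4 peaks in maDC and none in the other lists, led by the start codon with 3.40 and 3.58. Rnf114, which binds ubiquitin and is linked to psoriasis in humans, had a start codon peak in each list and, in DCreg alone, a 5′ UTR peak of 2.79 and 4.98. Rnf41, a ligase of MyD88 and TBK1, had a stop codon peak in each list, of 1.98 and 2.40 in imDC, 2.91 and 3.86 in maDC and 2.98 and 2.14 in DCreg.

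The chromatin and DNA damage RNF genes were listed for 6 of 9 members in imDC, 7 in maDC and 8 in DCreg. Rnf20, which ubiquitinates histone H2B together with Rnf40, gave 2.22 and 2.96 in imDC, 2.78 and 4.78 in maDC and 3.83 and 4.09 in DCreg at a shared coding peak. Both DCreg values were above both imDC values, and the maDC pair was too wide apart to be placed. Rnf40 had peaks in maDC and DCreg and none in imDC, and its strongest gave 1.57 and 1.91 in maDC. Rnf111 (Arkadia) gave 2.55 and 1.89 in imDC, 2.12 and 3.49 in maDC and 3.66 and 4.05 in DCreg. Rnf169, a reader of the histone mark set by Rnf168, gave 1.84 and 3.54, 3.23 and 3.90, and 3.49 and 2.13 in the same order, which overlap.

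Among the 14 RNF genes of membranes and endosomes, 9 were listed in imDC, 12 in maDC and 8 in DCreg. Rnf150, a transmembrane ligase with a protease-associated domain, had 8 listed peaks in DCreg, some of them abutting, and 1 each in imDC and maDC. The 8 were the most listed for any member in any list. The DCreg peaks ran from the 5′ UTR to the far 3′ UTR, and the one at the stop codon gave 3.55 and 3.73. A 3′ UTR peak at 3508 to 3663, of the same extent in both lists, gave 3.34 and 1.61 in imDC and 3.27 and 5.87 in DCreg. Rnf121, of the Golgi and endoplasmic reticulum, gave 2.24 and 3.38 in imDC, 3.23 and 4.64 in maDC and 3.58 and 1.90 in DCreg. Rnf149 held peaks at the start codon and in the 3′ UTR in every list, with 2.98 and 3.27 in imDC, 3.67 and 2.50 in maDC and 3.39 and 2.20 in DCreg at the former, which overlap. Rnf152, of the lysosome, and Rnf43, which removes Wnt receptors from the surface, were listed in imDC and maDC and not in DCreg. Rnf152 gave 1.65 and 2.61 in imDC and 2.46 and 3.38 in maDC, and Rnf43 gave 2.23 and 2.21 and 1.99 and 1.94.

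The remaining 17 RNF genes were listed for 13 members in imDC and 16 in each of maDC and DCreg. The shares of all listed transcripts were 66.1%, 88.1% and 72.8% in imDC, maDC and DCreg. Rnf19a, a RING-between-RING ligase, had 3, 5 and 6 peaks in imDC, maDC and DCreg. Its coding peak near 2335 gave 2.63 and 2.77 in imDC, 2.40 and 4.02 in maDC and 4.11 and 3.50 in DCreg. Rnf146, which reads poly(ADP-ribose), gave 2.23 and 2.49 in imDC, 2.78 and 3.56 in maDC and 3.23 and 3.24 in DCreg over its motif pair. Rnf25 gave 1.74 and 2.99, 3.02 and 3.23, and 2.94 and 1.76 over its own pair. At both genes the lower maDC value exceeded the higher imDC value. Rnf217 had replicates far apart in imDC and in DCreg at a coding peak. It gave 4.78 and 2.36 in imDC, 2.69 and 3.54 in maDC and 4.03 and 1.62 in DCreg. Rnf6 gave 3.04 and 2.71, 2.94 and 2.95, and 2.42 and 1.41 in imDC, maDC and DCreg, the DCreg pair lying below the others.

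**Figure D2:**
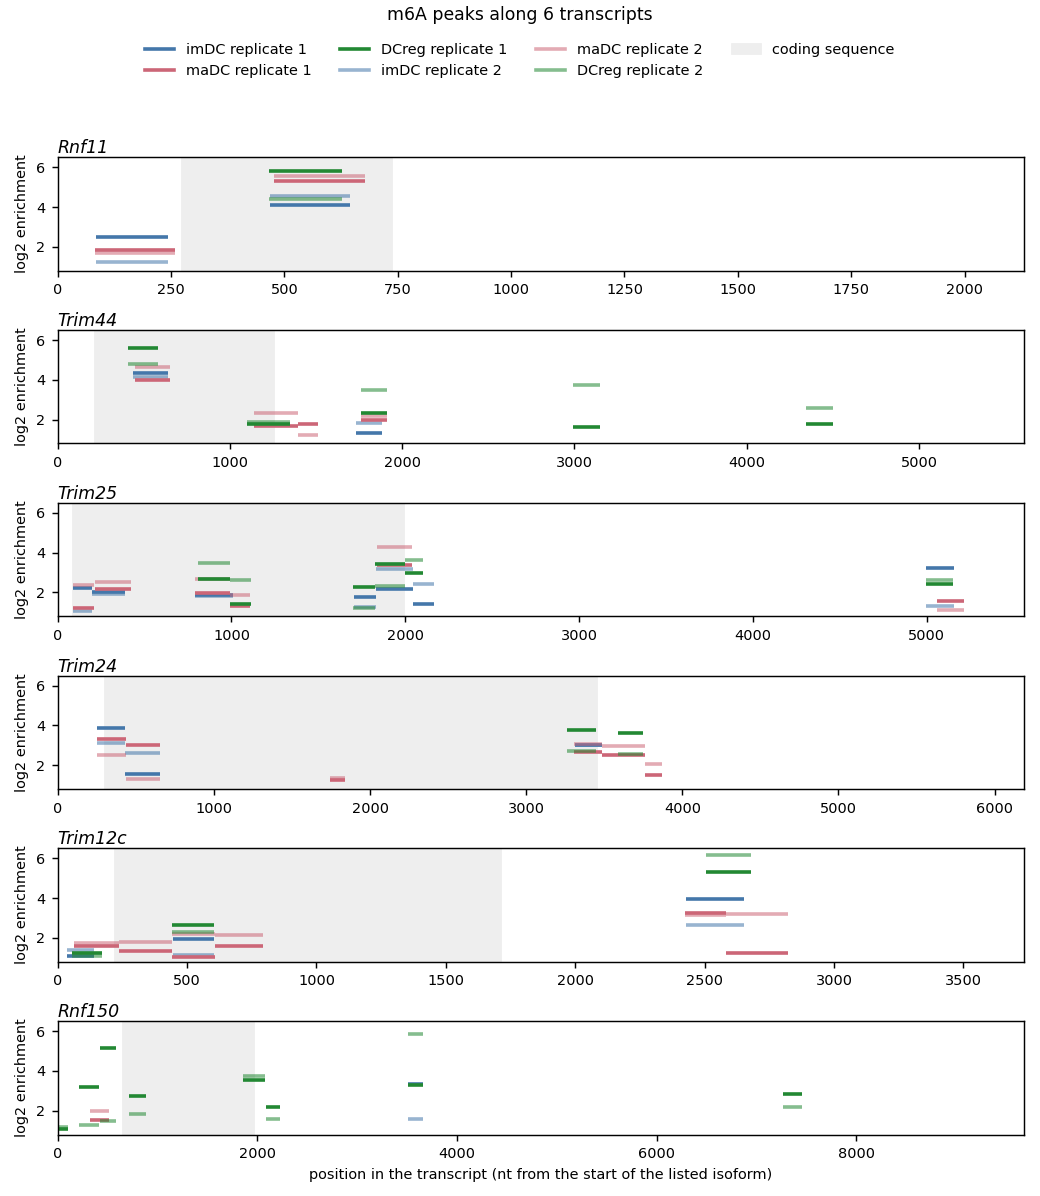
Peaks of 6 members along their transcripts (horizontal axis, nucleotides from the start of the isoform; grey band, coding sequence), each drawn at its log2 enrichment in replicate 1 (full colour) and replicate 2 (pale) for imDC, maDC and DCreg. Rnf11 and Trim44 each have a strong coding peak in all 3 types, Trim12c has its strongest in the 3′ UTR of DCreg at 5.34 and 6.18, and Rnf150 has 8 peaks in DCreg against 1 in each other type.

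Which members had a peak in one type and none in another was then counted. Of the 89 members 20 were in the maDC list and missing from that of imDC, against 27.2% of all 9142 transcripts, and 5 were the reverse, against 5.24%. Between maDC and DCreg, 22 members had a peak in maDC alone of the 2, against 24.2%, and 9 in DCreg alone of the 2, against 8.93%. Between DCreg and imDC, 11 members had a peak in DCreg alone of the 2, against 20.4%, and 9 in imDC alone of the 2, against 13.7%. In 5 of the 6 counts the members' share, between 5.62% and 24.7%, lay within 5 percentage points of all transcripts, and for DCreg without imDC it was 12.4%.

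A peak in maDC and in neither other type was listed for 13 members, against 13.5% of all transcripts: Rnf128, Rnf13, Rnf144a, Rnf180, Rnf186, Rnf26, Trim12a, Trim29, Trim30b, Trim43b, Trim45, Trim46 and Trim62. Trim46, a microtubule TRIM, gave 2.34 and 2.63 at a stop codon peak with 3 GGACT motifs. Trim43b gave 2.40 and 3.19 over the motif pair shown, and Trim45 gave 2.40 and 2.19. Rnf26, Rnf180, Rnf186 and Rnf13 were close to the threshold in at least 1 replicate, with lower values of 1.11, 1.05, 1.29 and 1.27. In DCreg alone stood Trim2, Rnf2, Rnf170 and Rnf113a2 (4 members, against 6.71%). Rnf2, the RING1B subunit of Polycomb repressive complex 1, gave 2.13 and 2.84 at a coding peak. The endothelial and stromal markers with a peak were also the most numerous in DCreg (8 of 28, against 2 in imDC and 4 in maDC), and their part in these 4 members was not tested. No member had a peak in imDC alone, against 3.02% of all transcripts. Peaks in imDC and DCreg and none in maDC were listed for Rnf130, Rnf166, Rnf220, Trim16 and Trim65 (5 members, against 2.22%), and Rnf220 gave 3.82 and 1.06 in imDC and 2.93 and 3.00 in DCreg. In maDC and DCreg and not imDC stood 7 members (against 13.7%), and in imDC and maDC and not DCreg 9 (against 10.6%).

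The coding sequence held the most peaks of the ligase genes in each list, and its share was compared with that of all peaks. In imDC 51.8% of them were coding (42.1 to 61.3, exact binomial 95% interval), against 37.3% of all peaks. In maDC the values were 49.7% (42.2 to 57.2) and 38.1%, and in DCreg 52.7% (43.7 to 61.6) and 47.1%. The interval left out the value of all peaks in imDC and maDC and held it in DCreg. In the TRIM genes the coding share was 64.0%, 61.3% and 54.2%, and in the RNF genes 41.9%, 40.6% and 51.9%. The intervals of the RNF genes held the value of all peaks in every list (29.5 to 55.2, 30.9 to 50.8 and 40.5 to 63.1). With both replicates at 2 or more, the interval of all members also held it in imDC (31.3 to 68.7, against 35.6%). The coding sequence made up 41.6% to 43.2% of the length of the members' transcripts, against 50.9% to 51.3% in all listed transcripts. The 3′ UTR held 12.5%, 22.7% and 24.8% of the members' peaks, against 22.8%, 27.4% and 28.6%. Peaks of 1 gene share a transcript, so these intervals cover the counting of peaks only, and the difference from all peaks was not tested.

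**Figure D3:**
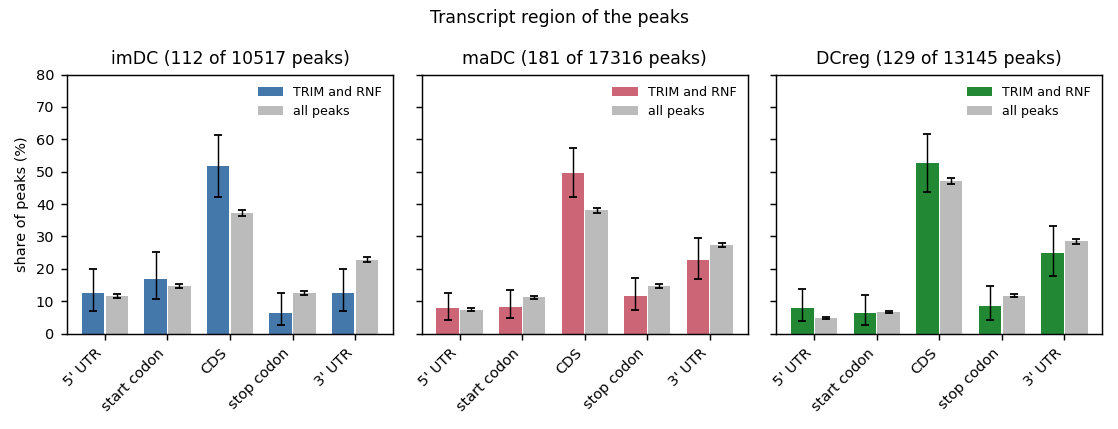
Share of peaks (%) in each part of the transcript for the TRIM and RNF genes (coloured) and for all genes (grey) in imDC, maDC and DCreg, with 95% exact binomial intervals. The coloured coding sequence bars stand at 51.8%, 49.7% and 52.7%, above the grey ones at 37.3%, 38.1% and 47.1%.

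By exon, 6.86%, 11.4% and 9.32% of the members' placed peaks in imDC, maDC and DCreg were in an internal exon of 400 nt or more, against 14.1%, 14.8% and 14.4% of all, and the first exon held 37.3%, 19.8% and 16.9%, against 26.2%, 17.6% and 10.2%.

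The share of members' peaks with GGACT was 28.6%, 32.6% and 26.4% in imDC, maDC and DCreg, against 31.4%, 33.1% and 28.0% of all peaks. Peaks with the motif had a median lower replicate of 1.86, 1.96 and 2.12, and peaks without it 1.59, 1.59 and 1.69. In the 82 member transcripts whose reference sequence matched the listed motifs, 75 GGACT sites lay under a peak in 45 genes, and 18 of them in all 3 lists. Of the 75 sites 45 were coding and 23 in the 3′ UTR. The wider RRACH form (a purine, a purine, A, C and any base but G, on the transcript strand, which includes GGACT) was present in 88.2%, 89.2% and 93.2% of the members' peaks and in 89.4%, 92.8% and 92.9% of all.

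The strongest peak of any member held no such motif. It lay in the 3′ UTR of Trim12c, a mouse relative of the restriction factor TRIM5, and gave 5.34 and 6.18 in DCreg (2507 to 2679). At the same place imDC gave 3.97 and 2.62 (2427 to 2651), and maDC gave 3.27 and 3.15 (2424 to 2581) and, in an abutting peak, 1.24 and 3.20 (2582 to 2824). Both DCreg values were above all others. The peak is 94.8% A or G, with an unbroken purine run of 111 nt and 0 RRACH motifs, and the imDC and maDC peaks hold runs of 120 to 128 nt and 0 motifs as well. Trim2, a TRIM with NHL repeats known from neurons, had a single peak, in DCreg (4019 to 4175), of 4.37 and 5.85, over a purine run of 110 nt and again 0 RRACH motifs. These were 2 of the 4 members' peaks of DCreg with both replicates at 4 or more. The other 2, in Rnf11 and Trim44, hold GGACT. Over all genes, purine runs of 40 nt or more were found in 0.700%, 0.614% and 1.11% of peaks in imDC, maDC and DCreg. Among peaks with both replicates at 4 or more they were in 0 of 54, 1 of 132 and 25 of 233. Among the members' peaks, 2 of 102, 4 of 167 and 5 of 118 held such a run.

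**Figure D4:**
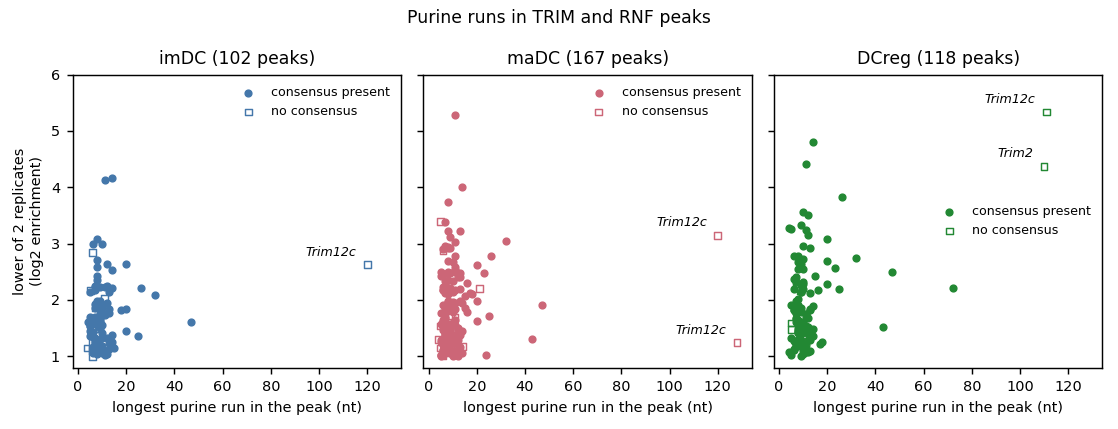
Lower of the 2 replicates (vertical axis, log2 enrichment) against the longest purine run (horizontal axis, nt) for each TRIM or RNF peak in imDC, maDC and DCreg, with open squares for peaks without an RRACH motif. Only the peaks of Trim12c and Trim2 hold a run above 100 nt, and in DCreg they lie at 5.34 and 4.37.

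Levels at the same site were compared between types at peaks listed in both, paired where the overlap covered at least 50% of the shorter peak, with limma over all shared peaks and Benjamini-Hochberg adjustment. Between maDC and imDC, 88 members' peaks in 55 genes were among 8306 shared peaks. At an adjusted p under 0.05, 0 of the 88 were called, against 0% of all shared peaks, and 2 of the 88 and 294 of all had an unadjusted p under 0.05. The median difference was 0.21 for the members and 0.21 for all shared peaks, and with each replicate centred on its median both fell to -0.06. Both maDC values were above both imDC values at 21 of the 88, against 23.6% of all shared peaks, and below at 6, against 7.46%. The widest difference was at the 5′ UTR of Trim8, a ligase of TAK1, with 1.35 and 2.15 in maDC and 4.99 and 2.24 in imDC (maDC minus imDC -1.87 ± 0.68 SE, limma adjusted p = 0.982). It rests on imDC replicate 1. With imDC replicate 2 left out, so that 1 imDC library remained, the difference was -3.25 and was called (adjusted p = 0.0023 by limma), as were 107 shared peaks in all. The next widest were Rnf41, Rnf20, Rnf135 and Trim25, with differences of 1.20, 1.19, 1.19 and 1.17.

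Between maDC and DCreg, 83 members' peaks were among 8485 shared peaks, and 1 was called as lower in maDC, against 0.259% of all (22 peaks). As higher in maDC 0 peaks were called, of the members or of all. The called member was Trim12c, at its 3′ UTR purine tract, where the abutting maDC peak of 1.24 and 3.20 was paired with the DCreg peak of 5.34 and 6.18 (maDC minus DCreg -3.54 ± 0.73 SE, limma adjusted p = 0.0020). The pairing took the weaker of the 2 maDC peaks. With abutting peaks joined and the highest value of each replicate kept, an alternative chosen after seeing the data, the difference was -2.52 and no longer called (limma adjusted p = 0.0851). Without maDC replicate 1, which leaves 1 maDC library and by the labels NEBNext alone, the difference was -2.56 (limma adjusted p = 1.00), and a test with 1 library in a group has little power. Both maDC values were above both DCreg values at 10 of the 83 members' peaks, against 14.6% of all, and below at 19, against 21.6%. Other wide differences were those of Rnf144b, a RING-between-RING ligase (2.17 and 1.94 in maDC, 3.61 and 3.26 in DCreg, -1.38 ± 0.70 SE), and Rnf214 (1.99 and 1.89 against 2.98 and 3.35, -1.22 ± 0.68 SE). Neither was called, though the replicates did not overlap.

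Between DCreg and imDC, 63 members' peaks were among 6124 shared peaks, and 0 were called, against 0% of all. An unadjusted limma p under 0.05 was given to 7 of the 63 members' peaks, all higher in DCreg, and to 386 of all 6124. With each replicate centred on its median, these became 3 members' peaks, 2 of them higher in DCreg, and 366 of all. Before centring, DCreg was the higher type at 73.0% of the members' peaks and 69.0% of all. The median difference was 0.43 for the members and 0.31 for all shared peaks, and 0.09 and -0.03 with each replicate centred. Both DCreg values were above both imDC values at 23 of the 63, against 30.2% of all, and below at 2, against 7.17%. Trim12c had the widest difference (2.46 ± 0.90 SE, limma adjusted p = 0.777), followed by Rnf150 (2.10 ± 0.88), Rnf214 (1.70 ± 0.68), Rnf111 (1.64 ± 0.74) and Rnf144b (1.63 ± 0.72). Simulated differences of 1 on the log2 scale were recovered for 0% to 8% of peaks with 2 replicates. Differences of 2 were recovered for 18% to 40%, and differences of 3 for 66% to 98%. The simulation gave all peaks of a comparison the same spread and no lower limit of 1, unlike the data. In that setting a difference of the size seen in most members would mostly be missed, and the power in the data themselves is not known.

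**Figure D5:**
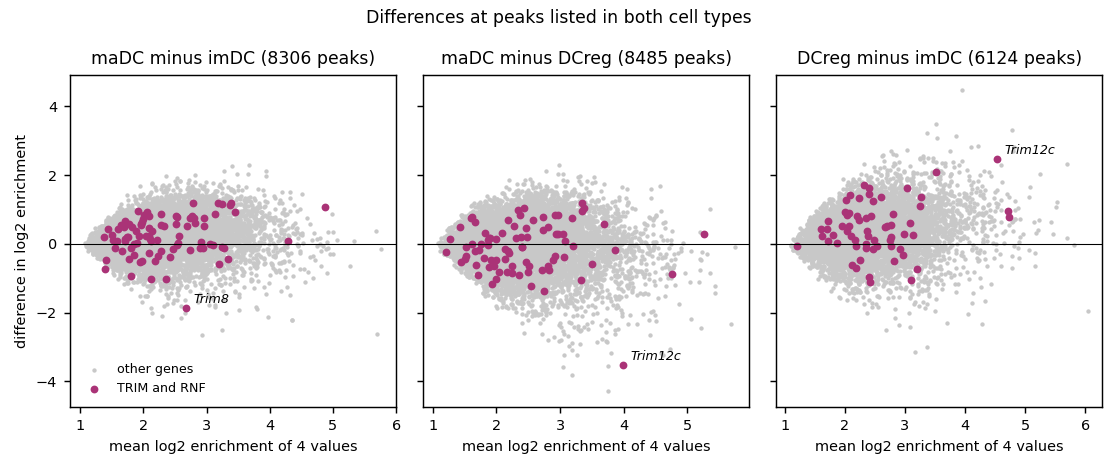
Difference in log2 enrichment (vertical axis) against the mean of the 4 values (horizontal axis) at peaks listed in both types of a comparison, for TRIM and RNF genes (purple) and other genes (grey). The widest member difference of each panel is named, Trim8 at -1.87 between maDC and imDC, and Trim12c at -3.54 between maDC and DCreg and at 2.46 between DCreg and imDC.

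Among the other enzymes of the ubiquitin pathway the maDC list was the longest too, as it was over all listed transcripts. Of all listed transcripts 66.1% had a peak in imDC, 88.1% in maDC and 72.8% in DCreg. DCreg held more genes than imDC for the E1 and E2 enzymes and the other RING ligases, again as over all transcripts. For the HECT ligases it held fewer, and differences from all transcripts were not tested. Of 39 E1 and E2 enzymes, which activate and carry ubiquitin, 33 had a peak in any list, 25 in imDC, 31 in maDC and 26 in DCreg. Ube2k gave 4.11 and 4.34 at its start codon in maDC. Of 96 other RING and RING-between-RING ligases 73 had a peak, 49 in imDC, 66 in maDC and 62 in DCreg. Arih1, an ariadne ligase, gave 5.79 and 5.60 in maDC, and Traf6, the ligase of TLR and IL-1 receptor signalling, gave 4.16 and 4.20 in maDC at its stop codon. Of 24 HECT ligases, which take ubiquitin onto themselves before passing it on, 22 had a peak, 17 in imDC, 22 in maDC and 15 in DCreg.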

How the data were processed

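The values deposited by the authors are log2 enrichment per replicate, 1 peak list per DC type, with 0 other columns of values per sample. TopHat2 2.0.14 had been used for alignment to mm10, windows of the longest isoform were tested on IP and input of both replicates together, and overlapping windows were merged. Windows with few reads beside the top window of the transcript in both IP and input had been left out. That the replicate columns follow the order of the labels was assumed.

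Transcripts were placed on GRCm38. 88 of 89 members were found and 82 had a sequence that fitted the listed motifs, and sequence features use those alone. Shared peaks were fitted with limma 3.58.1 (R 4.3.3, lmFit and eBayes with trend), tested on simulated data first. Tables were made with Python 3.11.15, pandas 2.3.3, SciPy 1.17.1 and Biopython 1.88, and figures with matplotlib 3.10.9. Any member could be named. Those described are the strongest of each role, genes with 5 or more peaks, genes of 1 list and the widest differences. Members, roles and lists were chosen with earlier results of these data known. Alternatives were the overlap rule, centring, no trend, thresholds of 1.5 and 2, leaving out each replicate and a replicate block.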

Additional observations from a re-analysis of the deposited data

How the results depend on the processing

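Counts of called peaks moved with the settings, and the cause was not tested. Between maDC and DCreg, the 22 called shared peaks became 11 with an overlap of at least 80% of the longer peak, 0 without the trend, 8 at a threshold of 1.5, 1 with the replicate block, 57 with crossed numbers as the block and 1 to 143 without 1 replicate. The call of Trim12c was lost, leaving 0 called members, with the 80% overlap, without the trend (adjusted p = 0.0966), at 1.5, with the replicate block (adjusted p = 0.0501), with abutting peaks joined (difference -2.52) and without maDC replicate 1, where 1 maDC library was left and the difference was still -2.56 (0 to 1 over the replicates left out). It was kept with any overlap, with centring, with crossed numbers and without each other replicate. Between maDC and imDC, 0 to 107 shared peaks and 0 to 1 members were called without 1 replicate, the highest without imDC replicate 2, and 1 shared peak with crossed numbers. Between DCreg and imDC, 2 were called after centring, 38 with crossed numbers and 0 to 2 without 1 replicate. Same-numbered replicates deviated with correlations over shared peaks of -0.12 (maDC against imDC), -0.04 (maDC against DCreg) and -0.35 (DCreg against imDC). These values cannot settle whether the numbers pair the samples, because only peaks of at least 1 in both replicates were listed. By the labels, imDC and maDC shared a kit within each replicate number.

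At a threshold of 2 in both replicates, 64 members had a peak in any list, 26, 48 and 35 of them in imDC, maDC and DCreg. Of the members' peaks 26.8%, 34.8% and 39.5% reached 2, against 29.0%, 35.5% and 36.2% of all peaks. In all 3 lists stood 12 of the 64 (18.8%, against 28.7% of all transcripts with a peak at 2). The members had been above all transcripts in this count at the lists' own threshold. A peak in imDC and none in DCreg was then found for 14 members (21.9% of the 64 with a peak at 2 in any list, against 13.7% of all such transcripts), and for 15 at 1.5 (19.2% of 78, against 13.6%), where the members had been below all transcripts at the lists' own threshold. A peak in DCreg and none in imDC was found for 23 at 2 (35.9%, against 32.9%), so the lower share of the members at the lists' own threshold did not hold there. A peak in imDC and none in maDC was found for 3 at 1.5 (3.85%, against 5.06%). GGACT was in 43.3%, 44.4% and 35.3% of the members' peaks at 2, against 37.0%, 39.6% and 31.3% of all, and in 40.9% in maDC at 1.5, against 36.7%, where the members had been slightly below all peaks at the lists' own threshold. The sign was followed only at the widest member differences of each comparison of shared peaks. It was the same in every setting where the pair of peaks was present. Other differences between types named above were not followed in this way.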
